A study of Mus musculus with 8 samples.

Results

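The genes of major histocompatibility complex (MHC) class I and of the pathway that loads it with peptide were followed across the cell types of mouse islets. The 9 genes were taken by name from the 19945 genes of the count table. They are *B2m*, *H2-K1*, *H2-D1*, *Tap1*, *Tap2*, *Tapbp*, *Psmb8*, *Psmb9* and *Nlrc5*, and all 9 were found. Islets were handpicked from wild-type mice, aged 6 to 12 weeks when the experiments began, that had received vehicle or FAKi (PF562271, an inhibitor of focal adhesion kinase, FAK) for 3 weeks with 2 doses per day. FAKi was given by gavage at 50 mg/kg, and the islets were isolated 10 days after the last dose and pooled from 5 mice per condition. Both groups were wild type, and the strain of these mice was not given in the sources used here. Each condition was 1 droplet-based scRNA-seq library, and the 8 deposited samples were taken as its sequencing lanes, 4 for each condition. Neither cells nor lanes were replicates, and no test across animals could be made.

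MHC class I molecules display peptides from inside the cell to cytotoxic T cells. The heavy chains, here the classical chains H2-K1 and H2-D1, pair with the light chain β2-microglobulin, the product of *B2m*. Peptides are cut by the proteasome, whose catalytic subunits are exchanged for Psmb8 and Psmb9 in immune cells and under interferon, are carried into the endoplasmic reticulum by the transporter Tap1/Tap2, and are loaded with the help of tapasin, the product of *Tapbp*. Nlrc5 is a transcriptional activator of class I genes. In islets, class I on β-cells is known as the target that cytotoxic T cells recognize in type 1 diabetes.

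Of the 9 genes, 7 lie on mouse chromosome 17, in or near the MHC (GRCm38, GENCODE M21). *H2-K1* spans chr17:33996017-34000347 on the minus strand and *H2-D1* spans chr17:35262730-35267499 on the plus strand. Between them, *Psmb9* (chr17:34181987-34187764, minus strand) and *Tap1* (chr17:34187553-34197225, plus strand) are head to head, followed by *Psmb8* (chr17:34197721-34201454) and *Tap2* (chr17:34203527-34216321), both on the plus strand. *Tapbp* lies at chr17:33915899-33929292. *B2m* (chr2:122147686-122153083) and *Nlrc5* (chr8:94434356-94527272) are on other chromosomes, both on the plus strand.

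Promoter windows of 300 bases, from 250 bases before to 50 bases after the start annotated by RefSeq (GRCm38.p6), were found for 7 of the 9 genes. Those of *B2m*, *H2-K1*, *H2-D1* and *Tap1* are shown because these genes differed most between cell types (*B2m*), are closely related heavy chains (*H2-K1* and *H2-D1*) or start head to head with another member (*Tap1* and *Psmb9*). They run 5′ to 3′ along the strand of the gene, from chr2:122147437-122147736, chr17:34000298-34000597, chr17:35262844-35263143 and chr17:34187306-34187605. Capitals mark matches to GAAANNGAA, the core of the interferon-stimulated response element, or to GGGATTCCC, a core of the NF-κB site, on either strand.
B2m promoter: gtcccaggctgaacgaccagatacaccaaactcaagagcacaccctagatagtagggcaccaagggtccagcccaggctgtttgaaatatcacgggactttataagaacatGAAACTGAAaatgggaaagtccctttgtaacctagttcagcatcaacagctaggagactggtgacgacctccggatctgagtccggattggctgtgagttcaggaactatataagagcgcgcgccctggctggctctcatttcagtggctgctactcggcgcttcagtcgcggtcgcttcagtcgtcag
H2-K1 promoter: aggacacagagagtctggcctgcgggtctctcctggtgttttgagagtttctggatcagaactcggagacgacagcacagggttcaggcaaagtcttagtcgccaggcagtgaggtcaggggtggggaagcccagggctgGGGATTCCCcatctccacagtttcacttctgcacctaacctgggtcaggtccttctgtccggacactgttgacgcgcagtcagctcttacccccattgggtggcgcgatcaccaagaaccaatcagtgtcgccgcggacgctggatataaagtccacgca
H2-D1 promoter: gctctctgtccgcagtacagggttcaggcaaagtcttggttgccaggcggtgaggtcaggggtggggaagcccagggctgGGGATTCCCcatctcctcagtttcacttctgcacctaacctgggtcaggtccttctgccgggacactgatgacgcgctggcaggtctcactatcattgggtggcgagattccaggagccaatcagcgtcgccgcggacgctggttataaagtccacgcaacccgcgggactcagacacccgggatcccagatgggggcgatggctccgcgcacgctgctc
Tap1 promoter: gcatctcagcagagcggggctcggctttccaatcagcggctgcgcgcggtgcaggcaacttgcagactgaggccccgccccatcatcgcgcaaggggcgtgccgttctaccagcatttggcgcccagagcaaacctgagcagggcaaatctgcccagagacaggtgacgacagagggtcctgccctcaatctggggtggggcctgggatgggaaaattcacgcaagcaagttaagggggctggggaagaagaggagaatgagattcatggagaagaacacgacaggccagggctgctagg

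GAAANNGAA was matched in 1 of the 7 windows, that of *B2m*, 139 bases before the start, against 8.56% of the 32851 promoter windows of the table. GGGATTCCC was matched in *H2-K1*, 110 bases before the start, and in *H2-D1*, 170 bases before the start, and in 0.353% of all windows. These distances depend on the start used. CCAAT on the strand of the gene lies 8 bases after that start in *H2-K1* and 53 bases before it in *H2-D1*. Hence the distances do not show that the site lies differently in the promoters. The *H2-K1* and *H2-D1* windows were identical at 218 of the 361 columns of their alignment (60.4%). Gap columns are counted in it, so 60.4% is lower than the identity of the paired bases. *H2-K1* had a second window in the table that was not used. The windows of *Tap1* and *Psmb9* lie on opposite strands and share 275 bases, chr17:34187306-34187580. CCAAT was matched in 6 of 7 windows and TGACG in 5 of 7, against 37.4% and 20.8% of all windows, and TTCNNNGAA in 1 of 7, *Psmb8*, against 8.30%. Both strands were searched for each motif, and a match is a description of the letters only. Variants that differ from these letters were not searched, so a window without a match is not shown to lack the element.

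The vehicle library held 3776 cells and 59514118 unique molecular identifiers (UMIs, each standing for 1 captured RNA molecule), and the FAKi library held 3183 cells and 57836783 UMIs, after the authors' filters. The labels state 8832 and 8437 cells for sequencing, and the 2 libraries shared 4 cell barcodes. Cell types were taken from the deposited annotation, which has 12 classes and 17 clusters. The endocrine classes β, α and δ held 1677 vehicle and 2128 FAKi cells, with medians of 21298 and 22235 UMIs. The immune and endothelial classes, which are endothelial cells, macrophages and the T- and B-cell classes, held 953 and 361 cells, with medians of 5186 and 4883 UMIs. A level is the sum of a gene's UMIs over a class divided by all UMIs of that class and scaled to a total of 1000000, abbreviated CPM. Parentheses after a level or a ratio hold exact 95% intervals, which cover counting error only.

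The labels of the classes were checked on marker genes, and 4 of them need care. The class annotated as δ held more *Ppy*, the hormone gene of PP cells, than *Sst*, the hormone gene of δ-cells. *Ppy* was at 144939 and *Sst* at 108920 CPM in the vehicle library, and at 141153 and 107072 CPM in the FAKi library. Its cluster 6 was led by *Sst* and its cluster 8 by *Ppy*, and both are given apart where they matter. The FAKi T-cell class had 28 cells, of which 12 were droplets with over 10% of their UMIs from the hormone genes, and its 5 T-cell markers summed to 120 CPM, against 1604 CPM in the 168 vehicle cells. The hormone genes (*Ins1*, *Ins2*, *Gcg*, *Sst*, *Ppy* and *Pyy*) took 42.6% of the UMIs of this class in the FAKi and 9.33% in the vehicle library. The FAKi B-cell class had 9 cells, with 1 of its 4 markers at 0, a marker sum of 756 CPM against 5585 CPM in 113 vehicle cells, and macrophage markers at 769 CPM. The class annotated as acinar cells of cluster 1 had more UMIs of the 7 β-cell markers, 157505 and 252216 CPM, than of the 5 acinar markers, 110594 and 84532 CPM, and 105 of its 161 vehicle and 246 of its 297 FAKi cells had over 10% hormone UMIs. The acinar list leaves out *Ctrb1*, *Try4* and *Clps*, which are among the 20 most abundant genes. These sums therefore do not rank β-cell against acinar RNA in this class. Endothelial cells and macrophages carried all 6 of their markers in both libraries, summing to between 11761 and 15157 CPM, and the 7 β-cell markers summed to 589481 and 601976 CPM in the β class.

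All 8 members with enough UMIs for a ratio (at least 100 in the classes compared) were higher in the immune and endothelial cells than in the endocrine cells of both libraries. The ratio ran from 3.76-fold for *Tapbp* to 49.3-fold for *B2m* in the vehicle library and from 4.27-fold to 37.3-fold for the same 2 genes in the FAKi library. At least 2-fold higher were 8 of 8 members in each library, among 36.8% of 12035 genes in the vehicle and 29.1% of 11547 genes in the FAKi library. With 1 CPM added, the members had a median log2 ratio of 3.72 and 3.44, and that of all genes tested was 0.59 and 0.44. *Nlrc5* had too few UMIs to be among the 8.

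*B2m*, the shared light chain, had the highest ratio of these 8 members. Its level in β-cells was 28.0 CPM (26.2 to 29.9) with vehicle and 35.5 CPM (33.6 to 37.4) with FAKi. α-Cells had 53.8 and 66.2 CPM, and the δ class had 37.9 and 44.8 CPM. In endothelial cells *B2m* was at 1717 and 1973 CPM, in macrophages at 1510 and 1564 CPM, and in B cells at 1105 and 886 CPM. T cells had 1259 CPM with vehicle and 290 CPM with FAKi, where the class held hormone-rich droplets. The lowest of the immune and endothelial classes in the vehicle library, B cells, lay 20.5-fold (17.5 to 24.1) above the highest endocrine class, α-cells. In the FAKi library the lowest, T cells, lay 4.37-fold (3.63 to 5.25) above α-cells. Fibroblasts (756 and 878 CPM), pericytes (430 and 455 CPM) and ductal cells (291 and 448 CPM) stood between both groups in the vehicle library. In the FAKi library they lay above the T-cell class, ductal cells by 1.55-fold (1.31 to 1.83), and above the endocrine classes. Acinar cells of cluster 2 were at 26.4 and 19.2 CPM. In the vehicle library β-cells and acinar cluster 2 were not set apart by their counting error.

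The heavy chains *H2-K1* and *H2-D1* were higher in immune and endothelial cells by 14.7-fold (14.2 to 15.2) and 12.0-fold (11.7 to 12.3) with vehicle. With FAKi these ratios were 10.8-fold (10.4 to 11.3) and 11.1-fold (10.8 to 11.4). *H2-K1* was at 83.6 and 101 CPM in β-cells, at 173 and 178 CPM in α-cells and at 171 and 167 CPM in the δ class. In endothelial cells *H2-K1* was at 1728 and 1766 CPM, and in macrophages at 1103 and 905 CPM. *H2-D1* was at 186 and 215 CPM in β-cells, at 297 and 370 CPM in α-cells and at 342 and 445 CPM in the δ class. Endothelial cells held 2952 CPM of *H2-D1* with vehicle and 4033 CPM with FAKi, the highest level of that gene in each library, and macrophages held 2112 and 2036 CPM. For both chains every immune and endothelial class lay above every endocrine class in both libraries. *H2-K1* and *H2-D1* share much of their coding sequence, but none of the 411 windows of 90 bases in the last 500 bases of either transcript was found in another gene, so that reads from this end, which the 3′ chemistry captures, can be told apart there.

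The peptide transporter and tapasin serve the loading of the heavy chains, and *Tap2* and *Tapbp* had lower ratios than the other members. *Tap1* was 11.9-fold (9.90 to 14.4) higher in immune and endothelial cells with vehicle and 10.1-fold (8.10 to 12.7) with FAKi, not set apart from *H2-D1* by its interval. It was at 3.40 and 3.62 CPM in β-cells, at 8.71 and 11.1 CPM in α-cells and at 53.9 and 57.9 CPM in endothelial cells. *Tap2*, the other chain of the transporter, was 5.46-fold (4.97 to 5.99) and 5.29-fold (4.64 to 6.01) higher, with 21.2 and 18.3 CPM in β-cells and 168 and 174 CPM in endothelial cells. *Tapbp* was 3.76-fold (3.52 to 4.02) and 4.27-fold (3.87 to 4.70) higher, the smallest ratio of the 8 members in each library. Its β-cell level was 49.97 and 42.4 CPM, and its endothelial level was 255 and 274 CPM. The classes came closest for these genes. In the vehicle library T cells, the lowest immune class, held 128 CPM of *Tapbp*, 1.57-fold (1.27 to 1.92) above the δ class at 81.6 CPM. In the FAKi library the T-cell class overlapped the endocrine classes for *Tap2* (26.2 CPM against 35.2 CPM in the δ class), and its *Tapbp* level, 64.5 CPM, did not differ from that of the δ class, 63.7 CPM, beyond counting error.

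The proteasome subunits of the immune form, *Psmb8* and *Psmb9*, had higher ratios than *Tap2* and *Tapbp*. *Psmb8* was 16.7-fold (15.5 to 18.0) higher in immune and endothelial cells with vehicle and 14.1-fold (13.0 to 15.3) with FAKi. *Psmb9* was 17.6-fold (15.8 to 19.6) and 14.7-fold (13.2 to 16.4) higher. In β-cells *Psmb8* was at 17.5 and 23.6 CPM and *Psmb9* at 9.62 and 14.0 CPM. Endothelial cells had 354 and 459 CPM of *Psmb8* and 221 and 277 CPM of *Psmb9*. In the vehicle library the 4 immune and endothelial classes held *Psmb8* at 354 to 393 CPM, and no neighbors in their order differed beyond counting error. The lowest of them lay 8.56-fold (7.35 to 10.0) above the δ class, the highest endocrine class at 41.3 CPM. Fibroblasts, pericytes and ductal cells, with 53.5 to 62.6 CPM of *Psmb8* in that library, were closer to the endocrine cells than for *B2m*.

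*Nlrc5*, the activator of class I transcription, gave 58 UMIs in immune and endothelial cells with vehicle and 11 with FAKi. These are levels of 8.79 and 4.13 CPM. In the vehicle library 6 UMIs were in endocrine cells, of which 4 were in β-cells, 2 in α-cells and 0 in the δ class. The ratio was 61.1-fold (26.4 to 173). In the FAKi library 1 UMI was in an endocrine cell, a β-cell. T cells had the highest vehicle level, 16.2 CPM (9.27 to 26.3), next to macrophages with 10.0 CPM (5.17 to 17.5), and their intervals overlapped. At this depth a difference in *Nlrc5* between the libraries was not detectable in endocrine cells.

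**Figure D1:**
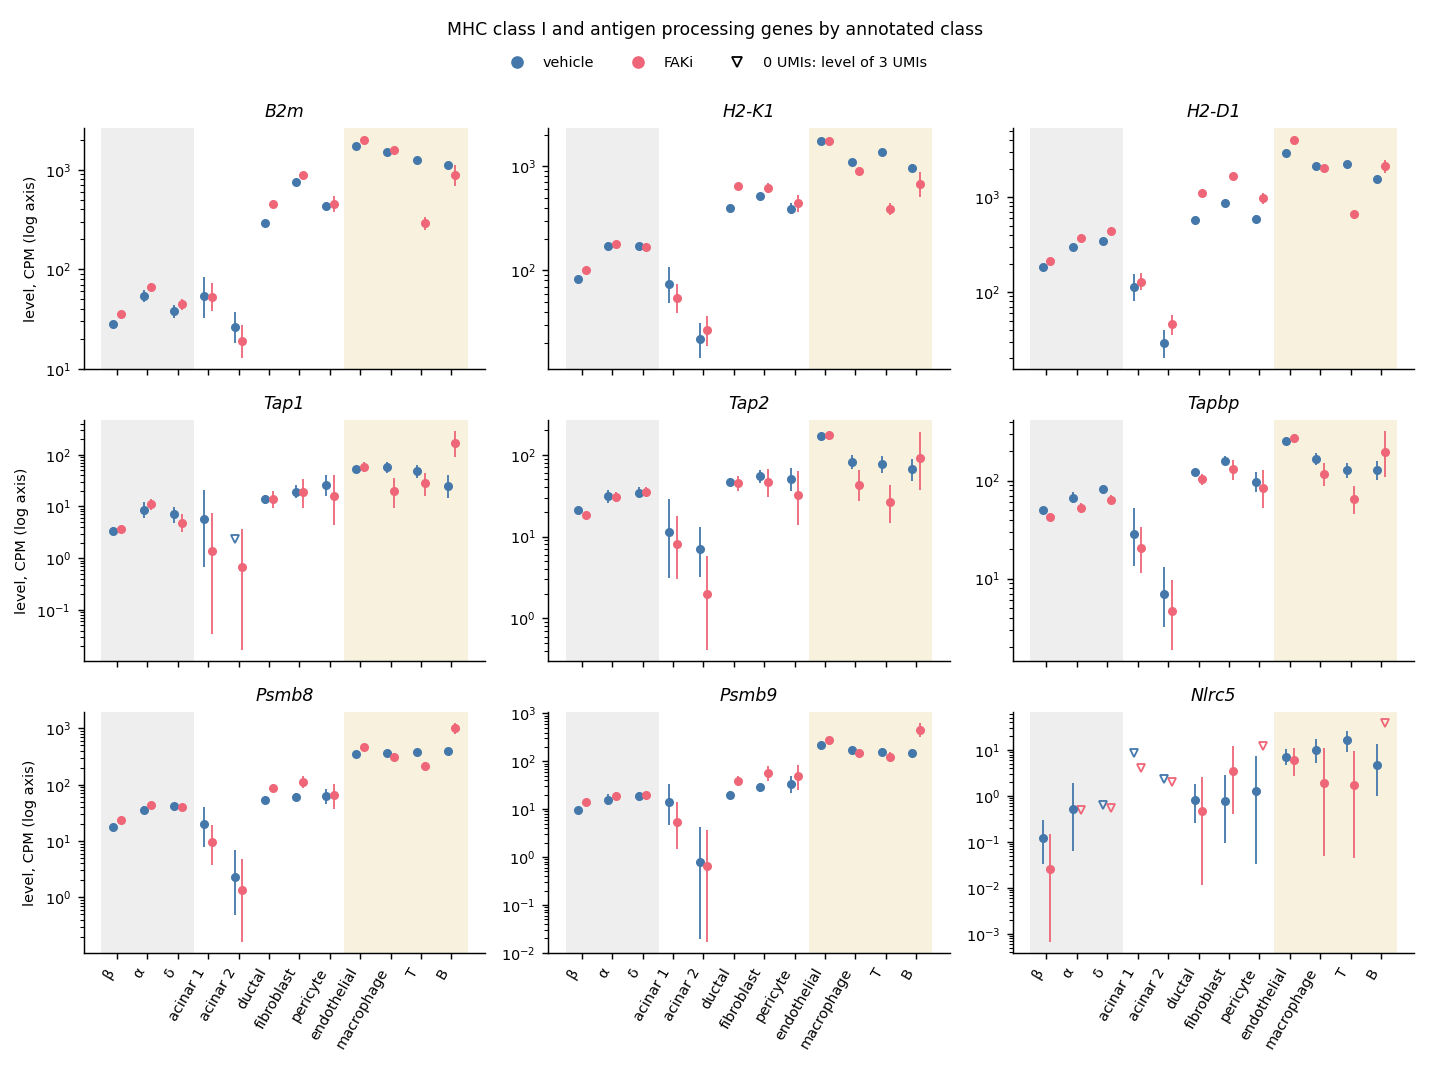
Level of each of the 9 genes, in CPM on a log axis, in the 12 annotated classes of the vehicle and the FAKi library, with exact 95% intervals of the count. The endocrine classes are on grey and the immune and endothelial classes on yellow, and for *B2m* the latter range from 1105 to 1717 CPM with vehicle against 28.0 to 53.8 CPM for the endocrine classes. Open triangles mark classes with 0 UMIs, drawn at the level of 3 UMIs.

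The hormone genes took 51.6% and 51.3% of the UMIs of endocrine cells, against 6.66% and 16.0% in immune and endothelial cells, and thereby lower the CPM of every other gene in endocrine cells. Without the 20 most abundant genes in the totals, the *B2m* ratio was 22.9-fold with vehicle and 19.5-fold with FAKi. *H2-K1* was then 6.81-fold and 5.65-fold higher, *H2-D1* 5.56-fold and 5.77-fold, *Tap1* 5.52-fold and 5.29-fold, *Psmb8* 7.75-fold and 7.38-fold, and *Psmb9* 8.15-fold and 7.66-fold. *Tap2* was 2.53-fold and 2.76-fold higher, and *Tapbp* 1.75-fold and 2.23-fold, so that *Tapbp* was under 2-fold in the vehicle library. With these totals the median of all genes was below 0, at -0.46 and -0.45 on the log2 scale.

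RNA of immune and endothelial cells can also reach endocrine droplets, and its level was gauged with 24 markers of those cells. Their summed level in endocrine cells was 76.7 CPM with vehicle and 62.6 CPM with FAKi, which is 0.687% and 0.552% of the sum in immune and endothelial cells. Most of it came from 2 genes. *C1qa*, a macrophage marker that encodes a complement chain, was at 39.8 and 37.3 CPM in endocrine cells, and *Cd79a*, a B-cell marker that encodes a chain of the B-cell receptor, at 24.6 and 17.2 CPM. *Cd79a* was at 30.3 and 22.1 CPM in β-cells but at 0.791 and 1.16 CPM in α-cells, and *C1qa* was at 117 and 90.1 CPM in the δ class against 24.4 and 22.5 CPM in β-cells. The other 22 markers summed to 12.3 and 8.19 CPM in endocrine cells, which is 0.119% and 0.0769% of their immune and endothelial level, and the 6 endothelial markers alone stood at 0.0621% and 0.0622%. These alternatives were chosen after the data were seen.

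If the members came along in the proportion they have in immune and endothelial cells, the level carried would depend on those 2 genes. By the 22 other markers it would be 1.85 of the 31.5 CPM of *B2m* in vehicle endocrine cells (5.87%) and 1.16 of the 40.2 CPM with FAKi (2.87%). With all 24 markers it would be 10.7 CPM (33.9%) and 8.29 CPM (20.6%). The share of *B2m* also differed between the endocrine classes. By all 24 markers it was 32.7% and 18.2% in β-cells, 23.6% and 22.99% in α-cells and 52.0% and 30.1% in the δ class, and by the 22 markers 6.05% and 1.66%, 2.73% and 6.62%, and 8.58% and 3.53%. For the other 7 members above the UMI minimum the carried share was lower, from 0.448% for *Tapbp* to 2.09% for *Psmb9* with vehicle and from 0.328% to 1.13% for the same genes with FAKi by the 22 markers. With all 24 it was 2.58% to 12.1% and 2.36% to 8.11%. Endocrine cells with no UMI of the markers were set against immune and endothelial cells with at most 10% hormone UMIs. The *B2m* ratios were then 59.9-fold and 55.6-fold by the 22 markers, which kept 1423 and 1907 endocrine cells, and 54.9-fold and 48.6-fold by all 24. Those of *H2-D1* were 13.4-fold and 15.6-fold by the 22 markers and 13.4-fold and 16.5-fold by all 24.

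**Figure D2:**
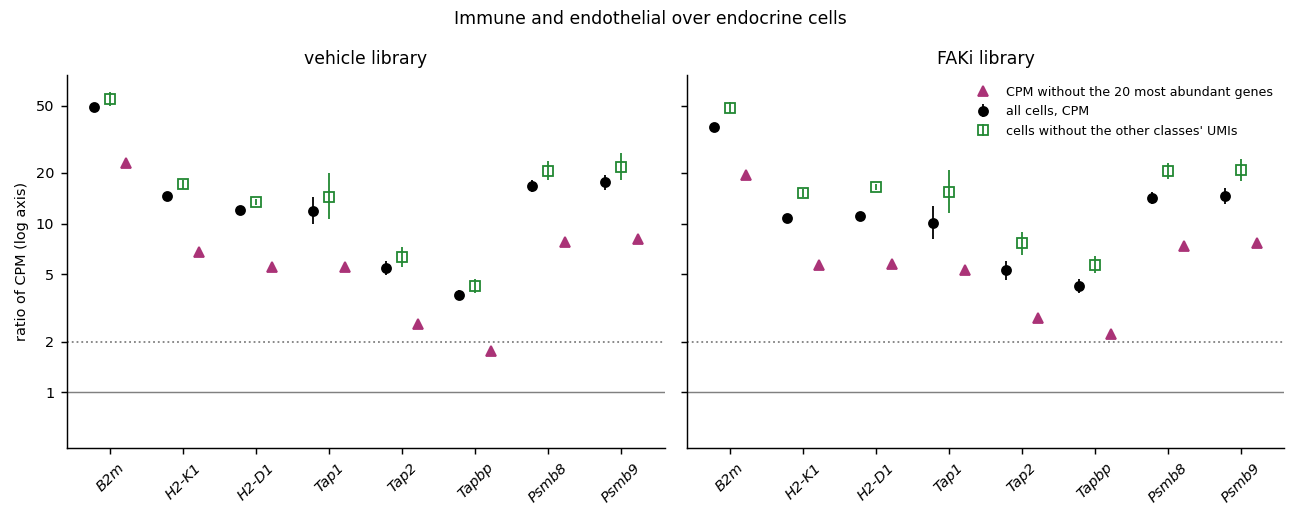
Ratio of CPM of immune and endothelial over endocrine cells for 8 genes, on a log axis, with exact 95% intervals, in the vehicle (left) and FAKi library (right). *B2m* has the highest and *Tapbp* the lowest ratio with all cells, without droplets that hold UMIs of the other classes, and without the 20 most abundant genes in the totals, where *Tapbp* of the vehicle library is the 1 value under the dotted line at 2-fold.

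**Figure D3:**
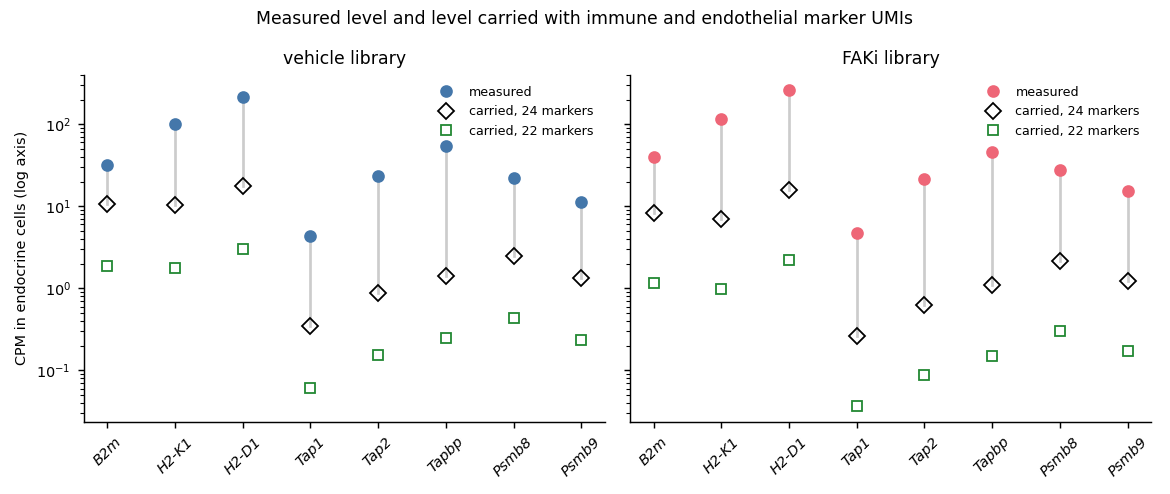
Level of 8 genes measured in endocrine cells (filled circles), in CPM on a log axis, and the level that marker UMIs of immune and endothelial cells would carry along, by all 24 markers (diamonds) and without *C1qa* and *Cd79a* (squares). For *B2m*, where they come closest, the values with vehicle are 31.5, 10.7 and 1.85 CPM, and those with FAKi 40.2, 8.29 and 1.16 CPM.

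The heavy and light chains did not scale together between classes. In β-cells there were 6.63 UMIs of *H2-D1* per UMI of *B2m* with vehicle and 6.07 with FAKi, in α-cells 5.52 and 5.59, and in the δ class 9.02 and 9.94. In endothelial cells this ratio was 1.72 and 2.04, in macrophages 1.40 and 1.30, and in ductal cells 1.99 and 2.45. Endocrine cells with no UMI of the 24 markers had 6.66 and 5.58. *Tapbp* per *B2m* was 1.78 and 1.20 UMIs in β-cells and 0.148 and 0.139 UMIs in endothelial cells. These are ratios of UMIs between 2 genes of the same class, and the capture of each transcript sets their absolute size, so only the difference between classes is read from them. The 2 heavy chains kept closer to each other, with 0.450 and 0.469 UMIs of *H2-K1* per UMI of *H2-D1* in β-cells and 0.585 and 0.438 in endothelial cells.

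To compare single cells at an equal total of UMIs, each cell was thinned to 2000 UMIs, which left out 65 of 1677 vehicle and 82 of 2128 FAKi endocrine cells, and 112 of 953 and 58 of 361 immune and endothelial cells. The number of UMIs from other than hormone genes was not equal, since the hormone genes took 55.7% and 56.3% of the UMIs of β-cells and 5.49% and 8.11% of those of endothelial cells. A *B2m* UMI was then seen in 6.69% (5.25 to 8.38) of 1046 vehicle and 6.67% (5.37 to 8.17) of 1289 FAKi β-cells, and in 94.4% (91.9 to 96.2) of vehicle and 95.2% (91.5 to 97.6) of FAKi endothelial cells. *H2-D1* was seen in 31.0% and 33.8% of β-cells, 42.5% and 49.9% of α-cells, 48.7% and 61.0% of δ-class cells, and 98.6% and 98.7% of endothelial cells. For *H2-K1* the shares were 15.8% and 18.1% in β-cells and 89.9% in endothelial cells of both libraries. *Tapbp* was seen in 9.56% and 7.06% of β-cells and 42.3% and 47.6% of endothelial cells, and *Psmb8* in 3.44% and 4.50% against 50.2% and 55.1%. Without thinning, 46.7% and 48.1% of β-cells held a *B2m* UMI and 91.1% and 91.5% an *H2-D1* UMI, at medians of 30792.5 and 30427.5 UMIs per cell. No class of these islets is known to lack the class I genes, and the share that stray RNA gives was gauged by the carried levels above.

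**Figure D4:**
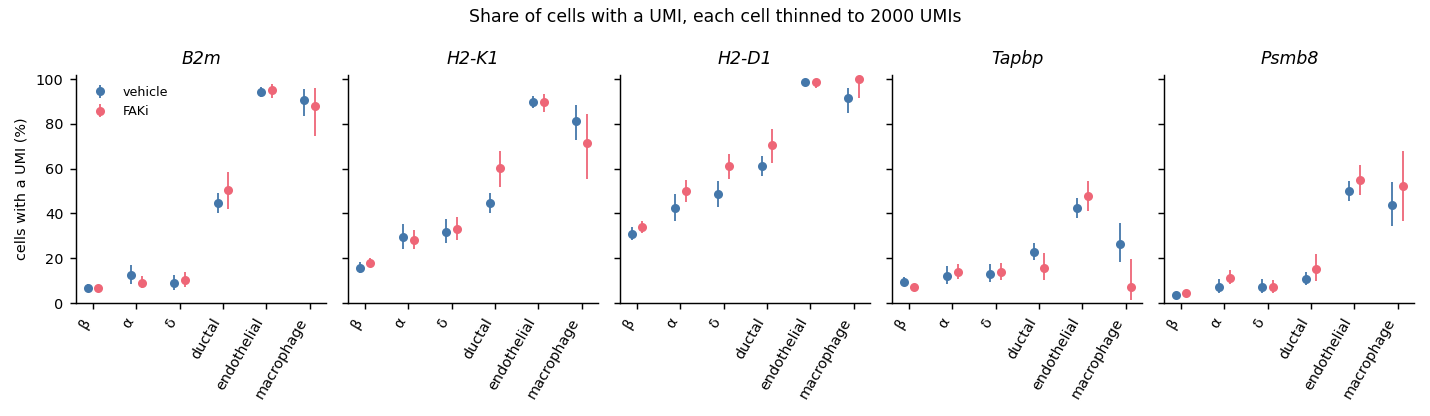
Share of cells with at least 1 UMI of *B2m*, *H2-K1*, *H2-D1*, *Tapbp* or *Psmb8*, in percent, after each cell was thinned to 2000 UMIs, in 6 classes of the vehicle and FAKi libraries, with Clopper-Pearson 95% intervals. *B2m* is seen in 6.69% and 6.67% of β-cells and in 94.4% and 95.2% of endothelial cells.

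Among the endocrine classes, β-cells had the lowest CPM of each of the 8 members, but for several of them the direction depended on the hormone genes in the totals. α-Cells exceeded β-cells by 1.35-fold (*Tapbp*) to 2.56-fold (*Tap1*) with vehicle and by 1.24-fold (*Tapbp*) to 3.08-fold (*Tap1*) with FAKi. *B2m* was 1.92-fold (1.64 to 2.24) and 1.87-fold (1.67 to 2.09), *H2-K1* 2.07-fold (1.90 to 2.25) and 1.77-fold (1.65 to 1.89), and *H2-D1* 1.60-fold (1.501 to 1.71) and 1.72-fold (1.64 to 1.80) higher in α-cells. At least 2-fold higher were 3 of 8 members with vehicle, where the share of all genes was 21.7%, and 1 of 8 with FAKi, where it was 26.9%. The median log2 ratio of the members was 0.80 in both libraries, and that of all genes was 0.52 and 0.60. Hormone genes took 55.7% and 56.3% of the UMIs of β-cells against 34.0% and 31.9% in α-cells. With the hormone genes out of the totals, an alternative chosen after the data were seen, the median of all genes was -0.01 and 0.00 on the log2 scale. On that scale *Tapbp* was at 0.904-fold (0.789 to 1.03) and 0.798-fold (0.705 to 0.900) of β-cells, and *Psmb9* was at 1.11-fold and 0.861-fold with intervals that held 1, as did those of *Tap2*. *B2m* was still higher in α-cells, at 1.29-fold (1.10 to 1.503) and 1.20-fold (1.07 to 1.34), and so were *H2-K1* at 1.39-fold and 1.13-fold, *H2-D1* at 1.08-fold and 1.10-fold and *Tap1* at 1.72-fold and 1.98-fold. Without the 20 most abundant genes *H2-D1* was at 0.980-fold and 0.986-fold, and with FAKi *B2m* was at 1.07-fold (0.955 to 1.20), *H2-K1* at 1.01-fold (0.947 to 1.09) and *Psmb9* at 0.769-fold (0.622 to 0.944).

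The δ class exceeded β-cells by 1.35-fold (*B2m*) to 2.37-fold (*Psmb8*) with vehicle and by 1.26-fold (*B2m*) to 2.07-fold (*H2-D1*) with FAKi. By all 24 markers the carried level of *B2m* with vehicle was 19.7 of 37.9 CPM in the δ class and 9.16 of 28.0 CPM in β-cells, so more of the δ value than of the β value could be carried RNA, and the part of this in the 1.35-fold was not tested. The median log2 ratio of the members was 0.87 and 0.65, against 0.56 and 0.54 for all genes. With the hormone genes out of the totals *B2m* was at 0.946-fold (0.801 to 1.11) and 0.879-fold (0.765 to 1.01) of β-cells, whereas *H2-K1* was still higher, at 1.43-fold and 1.15-fold, and *H2-D1* at 1.29-fold and 1.44-fold. Without the 20 most abundant genes *B2m* was at 0.863-fold (0.731 to 1.01) and 0.794-fold (0.691 to 0.910), and *H2-K1* with FAKi at 1.04-fold (0.969 to 1.12). Within this class the *Ppy*-led cluster 8 had lower CPM of the members named here than the *Sst*-led cluster 6. *H2-K1* was 0.570-fold (0.492 to 0.659) and 0.517-fold (0.451 to 0.592), *H2-D1* 0.793-fold (0.717 to 0.876) and 0.657-fold (0.606 to 0.712), and *Tapbp* 0.482-fold (0.386 to 0.599) and 0.311-fold (0.243 to 0.396) of the level in cluster 6. At least 2-fold lower were 1 of 6 members tested with vehicle and 3 of 7 with FAKi, against 21.5% and 21.7% of all genes. The medians of the members were -0.77 and -0.95 and those of all genes -0.62 and -0.57, and hormone genes took 48.5% and 48.7% of the UMIs of cluster 8 against 24.4% and 24.3% of cluster 6. Without the hormone genes in the totals *H2-D1* was at 1.17-fold (1.05 to 1.29) and 0.971-fold (0.896 to 1.05) of cluster 6, so its direction turned with vehicle, while *H2-K1* was at 0.838-fold and 0.764-fold and *Tapbp* at 0.708-fold and 0.460-fold. Among β-cells, the smallest cluster, 10, held 1.28-fold and 1.43-fold the *H2-D1* level of cluster 0, the largest, and 1.34-fold and 1.48-fold the *Tapbp* level. The median of the members was 0.36 and 0.45, and that of all genes 0.18 in both libraries. Without the hormone genes *H2-D1* was at 1.15-fold and 1.24-fold, and *B2m* at 0.910-fold (0.722 to 1.14) and 0.861-fold (0.699 to 1.05). Of the 121 and 115 cells of cluster 10, 12 and 18 were called doublets, while 0 were called in cluster 0.

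The libraries were then compared within endocrine cells to see whether FAKi went with a change in class I genes there. None of the differences reached 1.5-fold, and the members moved in both directions. The light and heavy chains and the proteasome subunits were higher with FAKi: *B2m* 1.28-fold (1.19 to 1.37), *H2-K1* 1.16-fold (1.11 to 1.20), *H2-D1* 1.22-fold (1.18 to 1.25), *Psmb8* 1.28-fold (1.17 to 1.39) and *Psmb9* 1.37-fold (1.22 to 1.54). *Tapbp* was lower, at 0.836-fold (0.789 to 0.886), and *Tap1* (1.09-fold, 0.892 to 1.33) and *Tap2* (0.917-fold, 0.841 to 1.00) had intervals that reached 1. At least 1.5-fold higher were 0 of 8 members among 1.56% of 11966 genes. The median log2 ratio was 0.24 for the members and -0.02 for all genes. With 1 library per condition these differences cannot be told apart from a difference between 2 pools of mice or 2 preparations.

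Each endocrine class was also compared alone. In β-cells *B2m* was 1.27-fold, *H2-K1* 1.21-fold, *H2-D1* 1.16-fold, *Psmb8* 1.35-fold and *Psmb9* 1.46-fold (1.27 to 1.68) of vehicle, and *Tapbp* was 0.849-fold. In α-cells *B2m* was 1.23-fold (1.04 to 1.46) and *H2-D1* 1.24-fold (1.16 to 1.34), while *H2-K1* was 1.03-fold (0.934 to 1.14) and *Tapbp* 0.784-fold (0.663 to 0.928). In the δ class *H2-D1* was 1.30-fold (1.22 to 1.39) and *Tapbp* 0.781-fold (0.674 to 0.905), and the intervals of *B2m*, *H2-K1*, *Tap1*, *Tap2*, *Psmb8* and *Psmb9* held 1. At 2000 UMIs per cell the share of β-cells with a *B2m* UMI was 6.69% and 6.67%, and the intervals of the libraries also overlapped for *H2-K1* (13.6 to 18.1% and 16.0 to 20.3%) and *H2-D1* (28.2 to 33.9% and 31.2 to 36.5%). In the δ class they did not overlap for *H2-D1*, with 48.7% (42.9 to 54.5) and 61.0% (55.5 to 66.4), but the shares were 51.9% and 52.5% among its 79 and 99 cells without UMIs of the 24 markers. Among endocrine cells without UMIs of the 24 markers the ratios were 1.36-fold (1.21 to 1.54) for *B2m*, 1.14-fold (1.09 to 1.20) for *H2-D1* and 0.864-fold (0.780 to 0.959) for *Tapbp*. Without UMIs of the 22 markers other than *C1qa* and *Cd79a* they were 1.30-fold (1.20 to 1.41), 1.20-fold (1.17 to 1.24) and 0.846-fold (0.794 to 0.901).

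In immune and endothelial cells 0 of 8 members were 1.5-fold higher with FAKi, where 4.19% of 8677 genes were, and the median was -0.06 for the members and -0.10 for all genes. *H2-D1* was 1.12-fold (1.09 to 1.15), *B2m* 0.967-fold (0.932 to 1.00) and *H2-K1* 0.855-fold (0.822 to 0.889) of vehicle. These sums hold the hormone-rich droplets of the FAKi T-cell class. With cells of at most 10% hormone UMIs, the ratios were 1.41-fold (1.37 to 1.44) for *H2-D1*, 1.21-fold (1.16 to 1.25) for *B2m*, 1.05-fold (1.01 to 1.09) for *H2-K1* and 1.39-fold (1.25 to 1.53) for *Psmb9*, and the median was 0.26. Endothelial cells, the highest class for *H2-D1* and *B2m*, gave 3255703 of 5579307 UMIs of these cells with vehicle and 1269978 of 1809884 with FAKi. The mix of classes thus differed between the libraries, and its part in these ratios was not tested. In the T-cell class as annotated, 5 of the 6 members tested were at least 1.5-fold lower with FAKi, among 47.7% of all genes, with *B2m* at 0.230-fold (0.194 to 0.271). Without the hormone-rich droplets, which left 164 and 16 cells, *B2m* was 1.01-fold (0.840 to 1.20) and *H2-D1* 1.17-fold (1.04 to 1.33) of vehicle. *Psmb8* was 2.51-fold of vehicle in those cells, but 1 droplet held 56 of its 107 UMIs. Of the T-cell markers, *Cd3d* was at 154 CPM in the 16 FAKi cells left, against 460 CPM with vehicle. *Cd3e* was at 76.8 against 305 CPM.

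Endothelial cells, the class with the most class I RNA, had 543 cells with vehicle and 269 with FAKi. *H2-D1* was 1.37-fold (1.32 to 1.41), *B2m* 1.15-fold (1.10 to 1.20), *Psmb8* 1.30-fold (1.18 to 1.42) and *Psmb9* 1.26-fold (1.11 to 1.41) of vehicle, and *H2-K1* was 1.02-fold (0.977 to 1.07). At least 1.5-fold higher were 0 of 8 members, against 2.53% of all genes. The annotation splits this class into cluster 3, with 371 and 229 cells, and cluster 11, with 172 and 40 cells, and the clusters differed. In cluster 3 *H2-D1* was 1.22-fold (1.18 to 1.27), *B2m* 1.00-fold (0.951 to 1.05) and *H2-K1* 0.868-fold (0.824 to 0.915) of vehicle. β-Cell markers in cluster 3 summed to 60260 CPM with vehicle and 96074 CPM with FAKi, α-cell markers to 1254 and 7279 CPM and acinar markers to 1066 and 2058 CPM. In cluster 11 *H2-D1* went from 2938 CPM with vehicle to 5991 CPM with FAKi, 2.04-fold (1.92 to 2.16), and *B2m* from 1344 to 2186 CPM, 1.63-fold (1.48 to 1.79). *H2-K1* was 1.63-fold (1.49 to 1.79), *Psmb8* 2.26-fold (1.89 to 2.71) and *Psmb9* 2.33-fold (1.83 to 2.95) of vehicle in that cluster. There 5 of the 7 members tested were at least 1.5-fold higher, among 7.54% of 2744 genes, and the median was 0.71 against 0.05 for all genes. The median cell of cluster 11 held 18 *H2-D1* UMIs with vehicle and 25.5 with FAKi, and the mean of the CPM of single cells gave 1.82-fold for *H2-D1* and 1.42-fold for *B2m*. β-Cell markers in cluster 11 summed to 44513 CPM with vehicle and 5873 CPM with FAKi, and the 4 mesenchymal markers to 195 CPM with vehicle and 3.83 CPM with FAKi, where 3 of them were at 0. The part of these in the difference was not tested. Without hormone-rich droplets *H2-D1* was 1.91-fold and *B2m* 1.52-fold of vehicle.

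In ductal cells and fibroblasts several members were 1.5-fold or more higher with FAKi. In ductal cells, 498 with vehicle and 156 with FAKi, *H2-D1* was at 581 and 1096 CPM, 1.89-fold (1.79 to 1.99), *H2-K1* at 395 and 639 CPM, 1.62-fold (1.51 to 1.73), and *B2m* at 291 and 448 CPM, 1.54-fold (1.42 to 1.66). *Psmb8* was 1.64-fold (1.36 to 1.96) and *Psmb9* 1.99-fold (1.49 to 2.64) of vehicle, whereas *Tap1* (1.00-fold), *Tap2* (0.9654-fold) and *Tapbp* (0.853-fold, 0.731 to 0.991) were not higher. At least 1.5-fold higher were 5 of 8 members, among 3.34% of 8601 genes, with a median of 0.66 against 0.01. The median ductal cell held 5 *H2-D1* UMIs with vehicle and 8.5 with FAKi, at medians of 9546 and 9661.5 UMIs per cell, and at 2000 UMIs per cell 61.3% and 70.6% of ductal cells held one. Other ways of summing (the mean over cells, totals without the 20 most abundant genes, and without hormone-rich droplets) gave 1.51-fold to 1.58-fold for *B2m* and 1.91-fold to 1.94-fold for *H2-D1*. In fibroblasts, 264 and 63 cells, *H2-D1* was 1.91-fold (1.77 to 2.06), *Psmb8* 1.85-fold (1.36 to 2.496) and *Psmb9* 1.97-fold (1.27 to 3.02) of vehicle, while *B2m* was 1.16-fold (1.05 to 1.28) and *H2-K1* 1.20-fold (1.07 to 1.35). There 3 of 7 members tested reached 1.5-fold, among 4.25% of all genes. Acinar and β-cell markers were higher with FAKi in both classes. The 5 acinar markers summed to 1285 and 2616 CPM in ductal cells and to 1061 and 4905 CPM in fibroblasts, and the 7 β-cell markers to 24364 and 53998 CPM and to 66795 and 133102 CPM. Markers of α-cells (4815 and 3677 CPM), of δ-cells (1905 and 1087 CPM) and *Ppy* (1238 and 470 CPM) were lower with FAKi in ductal cells. In fibroblasts they were higher, at 336 and 765 CPM, 741 and 2240 CPM, and 89.0 and 166 CPM. The part of these in the differences was not tested. In pericytes *H2-D1* was the 1 of 3 members tested that did, at 1.67-fold (1.42 to 1.95), among 5.34%, and there the acinar markers summed to 2035 and 4382 CPM and the β-cell markers to 20807 and 32756 CPM, while α-cell markers summed to 6413 and 1265 CPM, δ-cell markers to 682 and 226 CPM and *Ppy* stood at 342 and 282 CPM. In acinar cells of cluster 2 it was the 1 member tested, at 1.59-fold (1.05 to 2.45), among 8.21%.

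In macrophages, 129 and 55 cells, *B2m* was 1.04-fold (0.951 to 1.13) and *H2-D1* 0.964-fold (0.896 to 1.04) of vehicle, and *Tap2* was lower, at 0.530-fold (0.318 to 0.848), the 1 of 7 members tested past 1.5-fold lower, among 12.3% of all genes. In that class the acinar markers summed to 1098 and 6863 CPM and the δ-cell markers to 143 and 3186 CPM, and their part was not tested. In B cells *H2-D1* was 1.38-fold (1.16 to 1.63) and *H2-K1* 0.697-fold (0.515 to 0.926) of vehicle. *Psmb8* was 2.55-fold (1.95 to 3.31) and *Psmb9* 3.07-fold (2.02 to 4.58) of vehicle, 2 of 5 members tested in that class, where 17.2% of all genes were as much higher, and the FAKi value rests on 9 cells with macrophage markers among their UMIs. The direction was also counted over the 12 classes, for the 1475 genes with at least 20 UMIs in every class, both libraries summed. *H2-D1* was higher with FAKi in 10 of them, with the interval above 1 in 9 and below 1 in 1, and 8.14% of those genes were higher in at least 10. *B2m* was higher in 8, with the interval above 1 in 5 and below 1 in 1, beside 28.7% of genes in at least 8. *H2-K1* was higher in 7, with the interval above 1 in 3 and below 1 in 3, beside 41.9% in at least 7. The other 6 members missed that minimum in acinar cells of cluster 2, so these shares do not apply to them. *Psmb9* was higher in 8, *Psmb8* in 7, *Tap1* in 6, *Tap2* in 3, *Tapbp* in 2 and *Nlrc5* in 1, and the interval lay below 1 in 6 classes for *Tapbp* and in 3 for *Tap2*, and above 1 in 0 for both. It lay above 1 in 5 classes and below 1 in 0 for *Psmb9*, above 1 in 5 and below 1 in 1 for *Psmb8*, above 1 in 1 and below 1 in 1 for *Tap1*, and above 1 in 0 and below 1 in 1 for *Nlrc5*. All these comparisons share the same 2 libraries, so the classes are not independent of one another.

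**Figure D5:**
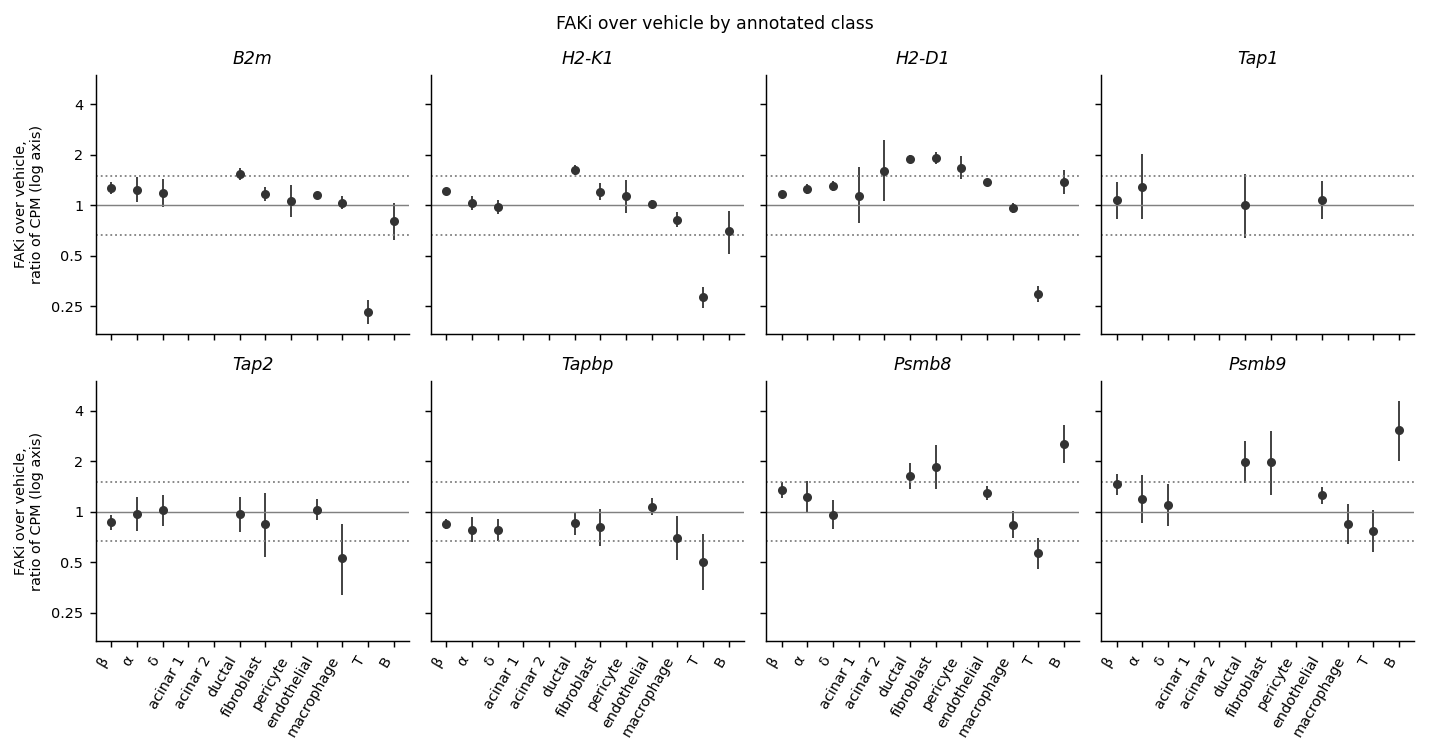
Ratio of CPM of the FAKi over the vehicle library for 8 genes in each annotated class, on a log axis, with exact 95% intervals; classes with under 100 UMIs of a gene are left blank. Dotted lines mark 1.5-fold in either direction. *H2-D1* is above 1 in all classes drawn but macrophages (0.964) and T cells (0.296), and *Tapbp* is at 0.849 in β-cells and 0.853 in ductal cells.

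Related genes were read from lists, beside the 36.8% and 29.1% of all genes that were at least 2-fold higher in immune and endothelial than in endocrine cells. The lists are given only on CPM with the hormone genes in the totals. Without the 20 most abundant genes the median log2 ratio of all genes shifted by -1.05 and -0.89, so calls near 2-fold depend on the totals. Of 11 other class I heavy chains tested with vehicle and 10 with FAKi, 10 and 9 were at least 2-fold higher in immune and endothelial than in endocrine cells, with a median log2 ratio of 2.71 and 2.65. *Fcgrt*, the heavy chain of the neonatal Fc receptor, which also pairs with *B2m*, was at 117 against 0.383 CPM with vehicle and 80.8 against 0.401 CPM with FAKi. *H2-T23*, a nonclassical chain, was 15.9-fold (14.7 to 17.3) and 21.1-fold (19.0 to 23.5) higher. *H2-Q2* went the other way, with 27.0 CPM in endocrine and 4.85 CPM in immune and endothelial cells of the vehicle library and 38.1 against 6.76 CPM in the FAKi library, and was the 1 chain at least 2-fold lower, among 14.1% and 13.6% of all genes. The genes of the H2-Q and H2-T families are near copies, and how their reads were split was not examined. All 3 of the other inducible proteasome genes were at least 2-fold higher, with *Psmb10*, the third exchanged catalytic subunit, at 11.2-fold (10.1 to 12.4) and 9.05-fold (8.05 to 10.2). Of the 14 constitutive proteasome subunits 8 and 7 were, with medians of 1.09 and 0.97, which are about the size of that shift. *Psmb4* had the lowest ratio, 1.56-fold and 1.54-fold, and *Psmb3* was at 2.67-fold and 2.44-fold.

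Of 9 chaperones and peptidases of peptide loading 3 and 2 were at least 2-fold higher, near the 36.8% and 29.1% of all genes, and their medians of 0.46 and 0.38 were near those of all genes, 0.59 and 0.44. Since the hormone genes lower the CPM of endocrine cells, these calls too depend on the totals. *Erap1*, which trims peptides in the endoplasmic reticulum, was 2.80-fold (2.45 to 3.21) and 2.56-fold (2.08 to 3.13) higher. *Canx* (0.830-fold and 0.944-fold) and *Hspa5* (0.725-fold and 0.849-fold), chaperones that also serve secretory proteins, were not higher. All 15 genes of interferon receptors and signaling were at least 2-fold higher in both libraries, and 20 of 21 and 18 of 19 interferon-induced genes were, with medians of 3.92 and 3.84. Lowest of the 15 were *Jak1* and *Jak2*, with a log2 ratio of 1.33 and 1.49 as the mean of both libraries. Their calls depend on the hormone genes in the totals and were not repeated without the 20 most abundant genes. *Ifngr1*, a chain of the interferon-γ receptor, was at 8.07 CPM in endocrine against 203 CPM in immune and endothelial cells with vehicle, and at 6.97 against 159 CPM with FAKi. *Ifitm3*, an antiviral membrane protein, was at 1.89 against 1270.2 CPM and at 1.58 against 1057 CPM. Of 10 factors known at class I promoters 4 were at least 2-fold higher in each library, against 36.8% and 29.1% of all genes, with *Rela*, a subunit of NF-κB, 4.87-fold (4.30 to 5.53) and 4.13-fold (3.39 to 5.01) higher and *Rfx5*, of the factor that binds the X box, at 0.991-fold (0.738 to 1.31) and 1.02-fold (0.635 to 1.57).

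Between the libraries, the lists of related genes gave few differences in endocrine cells. Of 9 other class I chains tested 0 were 1.5-fold higher and 3 lower with FAKi, among 2.26% of all genes that were lower, with *H2-Q7* at 0.571-fold (0.490 to 0.666) and *H2-Q6* at 0.541-fold (0.414 to 0.703). *H2-Q2* was 1.41-fold (1.31 to 1.52). Of 12 interferon-induced genes 0 passed in either direction, with a median of -0.01, and of 14 signaling genes 1 was lower, *Irf1*, an interferon-induced activator, at 0.657-fold (0.620 to 0.696). In immune and endothelial cells 4 of 20 interferon-induced genes were higher, among 4.19% of all genes, and 2 lower, among 10.7%. In endothelial cluster 11, 6 of 13 interferon-induced genes tested were 1.5-fold higher, with a median of 0.46, and 2 of the 3 other inducible proteasome genes, among 7.54% of all genes. In ductal cells 2 of 7 interferon-induced genes were higher, among 3.34% of all genes, and 1 was lower, among 4.83%. In fibroblasts 3 of 9 were higher, among 4.25%. Of the ligands, *Ifng* (interferon-γ) had 81 UMIs in 19 of 168 vehicle T cells, 37 of them in 1 cell, and 0 in the 28 cells of the FAKi class. Of the FAKi cells only 16 had at most 10% hormone UMIs. *Ifnb1* had 25 UMIs in 6 of 129 vehicle macrophages, 11 of them in 1 cell, and 0 in the 55 FAKi macrophages. Since few cells held these UMIs, a difference between the libraries was not detectable with these numbers of cells. Both ligands were under the minimum of 100 UMIs and were named after their values were seen.

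Over the 24 levels of 12 classes in 2 libraries, the mean profile of the members was most like that of *H2-T23* and *Arpc3* (Pearson's r of 0.967 for each), *Capza1* and *H2-T22* (0.963 for each) and *Arhgdia* (0.961), on log2(CPM + 1). Of the members themselves, *H2-K1* (0.984) and *H2-D1* (0.979) were closest to the mean and *Nlrc5* (0.717) was farthest, next to *B2m* (0.918), *Tapbp* (0.923) and *Tap2* (0.925). The points share the 2 libraries, the totals of each class and the stray RNA of each library, so these correlations only describe the profiles.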

How the data were processed

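The deposited counts are whole UMI counts per gene and cell, not normalized. Per the labels, the libraries were made with a droplet-based 3′ chemistry, and the submitters' processing notes name Seurat 3.1 and the build mm10. The authors counted UMIs with Cell Ranger and filtered cells on genes detected and on mitochondrial content. The deposited percent of mitochondrial UMIs was at most 8.00% in a cell. Class and cluster of each cell are the authors' annotation, which they made on normalized, integrated data that were not used here.

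The UMIs of each class were summed within a library, with the 4 lanes of each library already merged in the files. Levels carry exact Poisson, ratios exact conditional binomial and shares Clopper-Pearson 95% intervals, which cover counting error only. Interval coverage was computed on simulated Poisson counts, which hold counting error only, so it says nothing about variation between cells or animals. A gene was tested for a fold with at least 100 UMIs in the 2 groups, and called at 2-fold between classes or 1.5-fold between libraries. Ratios carry no pseudocount, and medians of log2 ratios carry 1 CPM. There were no replicates, hence no p-values. Scrublet called 68 doublets with vehicle and 57 with FAKi, which were kept in the main values. Alternatives were the mean over cells, totals without the 20 most abundant genes, no doublets, cells with at least 1000 detected genes, cells without UMIs of other classes, classes weighted equally, a pseudocount of 10 CPM, genes with at least 20 UMIs, and thinning to 2000 or 1000 UMIs. Leaving out T and B cells, the other scalings within single classes, totals without hormone genes and the 22 markers without *C1qa* and *Cd79a* were added after the data were seen. The members and lists were chosen with earlier results of these data known. Named genes are the 9 members in every class, of each list the 2 highest and 2 lowest by log2 ratio between classes and between libraries in endocrine cells, and the 5 genes with the most similar profile. Promoters and motifs are from RefSeq and gene positions from GENCODE. The promoter windows of *Tap2* and *Nlrc5* and protein sequences were not used here.

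Tables and intervals were computed with pandas 2.3.3 and scipy 1.17.1 (numpy 2.4.6, python 3.11.15), doublet calls with scanpy 1.11.5 and seed 0, alignments with biopython 1.88, and plots with matplotlib 3.10.9.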

Additional observations from a re-analysis of the deposited data

Results flagged for a closer look

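The ratio of the FAKi over the vehicle library pointed in opposite directions in different classes for 4 members, counting ratios of at least 1.5-fold either way with 100 UMIs or more and intervals on opposite sides of 1. *B2m* was 1.54-fold in ductal cells and 0.230-fold in T cells. *H2-K1* was 1.62-fold in ductal cells and 0.282-fold in T cells. *H2-D1* was 1.91-fold in fibroblasts and 0.296-fold in T cells. *Psmb8* was 2.55-fold in B cells and 0.567-fold in T cells. The difference between the classes was not tested, because each class is 1 library per condition. The low value stands in each case for the FAKi T-cell class, in which 12 of 28 droplets had over 10% hormone UMIs, and without those droplets *B2m* was 1.01-fold, *H2-K1* 0.876-fold, *H2-D1* 1.17-fold and *Psmb8* 2.51-fold of vehicle in T cells. Most of the FAKi *Psmb8* UMIs left were in 1 droplet. The FAKi droplets left were also lower in *Cd3d* and *Cd3e* than the vehicle T cells. The *Psmb8* value in B cells rests on 9 FAKi cells.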

How the results depend on the processing

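Of the summary values under the alternatives 45 were counted as the same and 25 as moved, by a tolerance that is not stated here. No direction past a fold threshold changed among them, but single members did change in the T-cell class without hormone-rich droplets. There *B2m* went from 0.230-fold to 1.01-fold and *H2-D1* from 0.296-fold to 1.17-fold. *Psmb8* went from 0.567-fold to 2.51-fold, past 1.5-fold in the opposite direction, with most of its FAKi UMIs in 1 droplet. For immune and endothelial over endocrine cells, the median log2 ratio of the members (3.72 with vehicle, 3.44 with FAKi) moved to 3.63 and 3.64 with the mean over cells, 2.62 and 2.51 without the 20 most abundant genes, 3.78 and 3.53 without doublets, 3.91 and 3.98 without UMIs of other classes, 3.11 and 2.66 with classes weighted equally, 3.40 and 3.27 with 10 CPM added, 3.58 and 3.68 at 2000 UMIs per cell, and 3.81 and 3.73 without T and B cells. The median of all genes shifted by -1.05 and -0.89 without the 20 most abundant genes and by -0.43 and -0.64 with classes weighted equally. For FAKi over vehicle in endocrine cells the median (0.24) was 0.18 with the mean over cells, 0.15 with classes weighted equally and 0.20 at 2000 UMIs. In immune and endothelial cells (-0.06) it was 0.12, 0.11 without the 20 most abundant genes, 0.26 without UMIs of other classes, 0.17 at 2000 UMIs and 0.0862 without T and B cells, so its sign changed under these settings, and 1 member instead of 0 passed 1.5-fold with classes weighted equally. Of the values of single members under these alternatives 187 stayed within counting error and 168 moved beyond it. The cause of these moves was not tested. No paired analysis was possible because each condition is 1 library. Depth limited *Nlrc5* everywhere and, between the libraries, *Tap1* in all annotated classes but β-, α-, endothelial and ductal cells. The T- and B-cell classes of the FAKi library held 28 and 9 cells.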
